A study of Mus musculus with 21 samples.

Results

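Reactive astrocyte genes were described in bulk RNA of the cortex and the hippocampus of mice that express a C9orf72 dipeptide repeat protein in neurons. The set held 10 genes of the 64361 in the count table, chosen by symbol: Gfap, Vim, Serpina3n, Osmr, Cd44, Lcn2, S100a6, Cp, Stat3 and Cd109. Each symbol matched 1 Ensembl identifier, and all 10 genes had counts in every group.

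The 21 libraries came from 11 mice of 30 to 40 weeks, 5 controls (genotype ctrl) and 6 GA-Camk2a mice (genotype GACamk), and 10 of these mice gave a library of each tissue. In GA-Camk2a mice, a transgene for GFP-tagged poly-GA behind a floxed stop cassette is switched on by Camk2a-Cre, so poly-GA is made in excitatory neurons and not, by design, in astrocytes. Per the study's methods the line was kept on C57BL/6J and the GA-Camk2a mice came from 2 litters, and no treatment of these mice was named in the sources used here. The cortex had 5 control and 6 GA-Camk2a libraries, the hippocampus 4 and 6, and the labels do not state which alleles the controls carried. The study's text gives other numbers of controls per tissue, and the labels were followed here. All mice were taken when the GA-Camk2a animals reached their humane endpoint. The sex of each mouse is not given in the labels.

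Astrocytes answer injury and protein aggregation by enlarging their processes, building up intermediate filaments and secreting acute phase proteins, a state called reactive. GFAP and vimentin form the filaments. Cytokines of the interleukin-6 family bind receptors that contain gp130 and activate the transcription factor STAT3, which is needed for much of the filament and acute phase response in astrocytes. The genes are shared with other cells to varying degrees: Vim is also high in endothelium, ependyma and microglia, Cd44, S100a6 and Lcn2 are found in immune or meningeal cells, Cp in choroid plexus, and Serpina3n in oligodendrocytes of diseased brain.

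Promoter windows are shown because 8 of the genes moved together in the hippocampus and 7 in the cortex, as described below. RefSeq windows of the GRCm38.p6 build, 250 bases before to 50 bases after a start site, were found for 9 of the 10 genes, with 10 windows in all since Cp has 2. Both strands were searched for the STAT element TTCNNNGAA, the AP-1 element TGANTCA, where N is any base, and the NF-kB element. The capitals mark the match, and the windows run 5′ to 3′ on the strand of the gene.
Gfap, STAT match, chr11:102897194-102897227, minus strand: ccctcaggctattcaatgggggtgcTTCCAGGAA
Serpina3n, NF-kB match, chr12:104406512-104406571, plus strand: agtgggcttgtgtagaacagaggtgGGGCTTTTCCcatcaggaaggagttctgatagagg
Vim, NF-kB match on the reverse strand, chr2:13574063-13574122, plus strand: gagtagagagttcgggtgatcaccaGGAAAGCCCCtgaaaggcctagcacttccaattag
Cp, AP-1 match, chr3:19956852-19956908, plus strand: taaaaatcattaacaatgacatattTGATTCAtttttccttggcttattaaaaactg
Osmr, AP-1 match, chr15:6874304-6874335, minus strand: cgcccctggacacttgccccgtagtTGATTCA

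The Gfap match began 2 bases before the start site and ended at base 7 of the transcript. The Serpina3n match began 171 bases, the Vim match 223 bases and 1 of the Cp windows' match 177 bases before the start, while the Osmr match lay at bases 4 to 10 of the transcript. The STAT element was found in 1 of the 10 windows, against 8.30% of all 32851 windows of the same length. The AP-1 element was found in 2 windows, against 7.81% of all windows, and the NF-kB element in 2, against 1.63%. The windows of Cd44, S100a6, Lcn2 and Stat3 held none of the 3 letter patterns. Cd109 had no entry. A match describes the letters of the window only.

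Total counts per library ran from 1048201 to 5888102 with a median of 1975173, and levels are given as CPM, the counts of a gene per 1000000 counts of its library. The 14 astrocyte markers were detected in every group and summed to between 2570 and 4623 CPM per library, so the labelled brain tissue held astrocyte RNA throughout. The GFP row of the table held 0 to 4 counts in GA-Camk2a libraries and 0 to 2 in controls, so it gives no check of the genotype labels. The hippocampus library of GA-Camk2a mouse 41 stood apart, with neutrophil markers summing to 909.98 CPM against 9.16 to 25.2 CPM in the other 20 libraries. Choroid plexus markers summed to 1809 to 32726 CPM in control hippocampus and 1847 to 55547 CPM in GA-Camk2a hippocampus. The hippocampus results of the set are also given without mouse 41, and Cp with the choroid plexus level as a covariate.

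**Figure D1:**
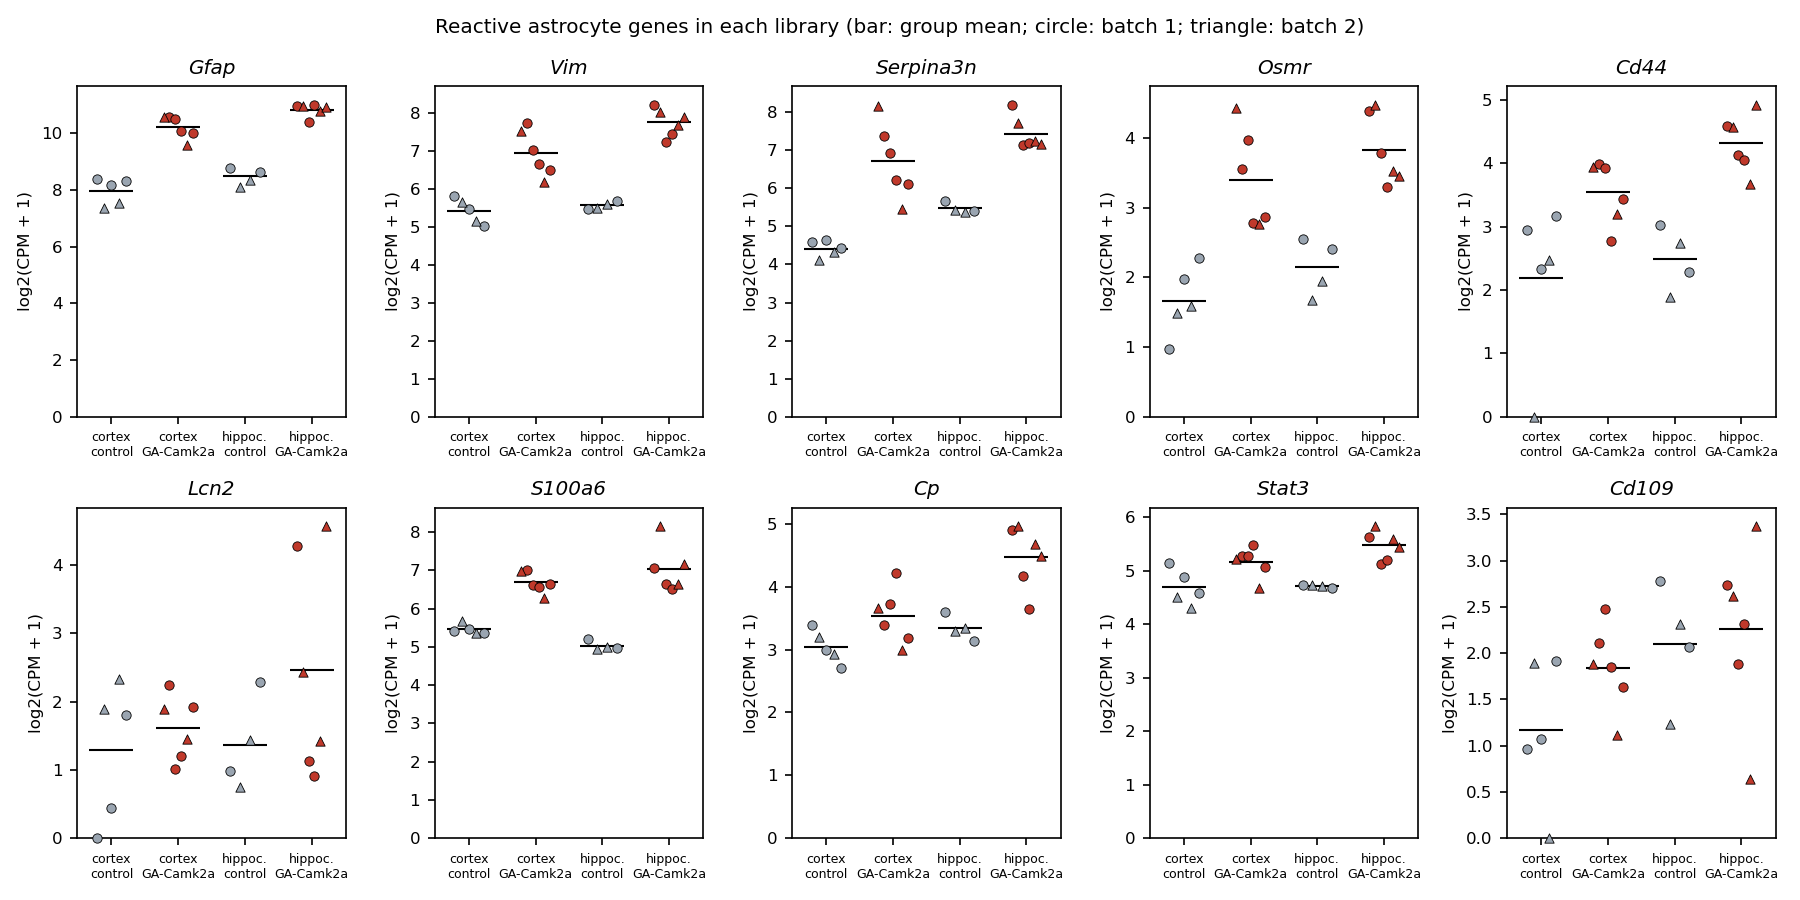
Each point is 1 library and gives the level of the named gene as log2(CPM + 1), in 4 groups of 4 to 6 mice, with circles for batch 1, triangles for batch 2 and a bar at the group mean. Gfap, Vim, Serpina3n, Osmr and S100a6 show no overlap of genotypes in either tissue, whereas Lcn2 is raised in only 2 hippocampus libraries and Cd109 overlaps in both tissues.

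To ask whether poly-GA in neurons moves these genes, GA-Camk2a and control libraries were compared within each tissue with edgeR's quasi-likelihood test, with batch as a covariate and Benjamini-Hochberg adjustment over all genes that passed a filter on low counts. In the cortex, 8 of the 10 genes were tested and 7 rose, while 829 of all 13058 genes tested (6.35%) were called higher and 805 (6.16%) lower. In the hippocampus, 9 were tested and 8 rose, against 739 of 14884 genes (4.97%) called higher and 886 (5.95%) lower. No gene of the set was called lower in either tissue. Every GA-Camk2a library lay above every control library for 5 of the 8 genes tested in the cortex and 8 of the 9 tested in the hippocampus, a pattern shown by 3.50% and 5.60% of all genes tested. The median log2 fold change was 1.48 over the 8 genes in the cortex and 2.00 over the 9 in the hippocampus, against -0.0049 and 0.016 over all genes tested. Lcn2 in both tissues and Cd109 in the cortex did not pass the filter, so these counts do not cover the whole set. Osmr in the cortex passed it through GA-Camk2a libraries alone and had to differ, so without it 6 of 7 genes were called in the cortex, 4 of 7 did not overlap and the median was 1.28. Cd44 in cortex and Osmr and Cd44 in hippocampus reached the filter's level in 2 controls each. In bulk RNA, more astrocytes and more RNA per astrocyte cannot be told apart.

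The filament genes rose in both tissues. Gfap, the astrocyte intermediate filament protein, measured 334, 163, 285, 185 and 316 CPM in the control cortex of mice 11, 20, 31, 37 and 38, and ran from 766 through a median of 1267 to 1529.8 CPM in GA-Camk2a cortex. The lowest GA-Camk2a library, that of mouse 35, was still more than the highest control. The log2 fold change was 2.27 ± 0.16 (SE, adjusted p = 3.9e-09 by edgeR), the 10th smallest p-value of the cortex comparison. In the hippocampus the controls of mice 11, 20, 31 and 37 measured 439.7, 276, 326 and 398 CPM and the GA-Camk2a libraries ran from 1338 through 1949.7 to 2042 CPM. There the log2 fold change was 2.32 ± 0.14 (SE, adjusted p = 4.1e-07 by edgeR), and Gfap had the smallest p-value of all 14884 genes.

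Vim, which codes for the second glial filament protein vimentin, measured 31.3 to 55.3 CPM in control cortex and 71.1, 115 and 211 CPM as lowest, median and highest value in GA-Camk2a cortex. The hippocampus controls lay close together, at 43.5, 44.5, 47.3 and 50.6 CPM, and the GA-Camk2a libraries ran from 151 through 221 to 297 CPM. The groups did not overlap in either tissue. Vim rose by 1.67 ± 0.23 on the log2 scale in the cortex (SE, adjusted p = 3.8e-05 by edgeR) and by 2.19 ± 0.17 in the hippocampus (adjusted p = 4.5e-06). Of the filament partners Nes, Synm, Plec, Des and Sync, 2 were tested in the cortex and 3 in the hippocampus and 0 were called by edgeR, counts too small to set against the share over all genes. Nes, the nestin filament of immature astroglia, gave a log2 fold change of 0.66 ± 0.39 in the hippocampus (SE, adjusted p = 0.32 by edgeR) at a mean of 3.55 CPM in controls and 5.00 CPM in GA-Camk2a mice.

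Among the secreted acute phase proteins, Serpina3n, a serine protease inhibitor, rose in both tissues. Cortex controls measured 22.9, 16.3, 23.8, 19.2 and 20.5 CPM in mice 11, 20, 31, 37 and 38, and GA-Camk2a libraries measured 284, 164, 122, 72.8, 43.1 and 67.9 CPM in mice 16, 23, 30, 34, 35 and 41. The GA-Camk2a cortices thus differed from each other by more than 6-fold while all exceeded the controls, and mouse 35 again was lowest. The log2 fold change was 2.56 ± 0.35 (SE, adjusted p = 2.8e-05 by edgeR), and 2.06 without mouse 16. It was the largest of the set in the cortex, a rank that went to Gfap, at 2.07, without that mouse. In the hippocampus controls lay between 40.5 and 50.0 CPM and GA-Camk2a libraries at 292, 209, 139, 144, 151 and 142 CPM in the same order of mice, a log2 fold change of 2.00 ± 0.20 (SE, adjusted p = 2.7e-05 by edgeR). Serpina3n belongs to a cluster of near-identical genes and reads could be split among them. The 6 paralogs on the list, Serpina3c, f, g, i, k and m, did not pass the filter in either tissue and had no more than 13 counts in any library.

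Lcn2, or lipocalin 2, an iron-siderophore binding protein that reactive astrocytes and neutrophils secrete, was near the limit of detection. In cortex it had 0 to 9 counts per library in both genotypes, which is 0 to 4.05 CPM in controls and 1.01 to 3.71 CPM in GA-Camk2a mice. In hippocampus 2 GA-Camk2a libraries stood out, mouse 16 with 52 counts (18.4 CPM) and mouse 41 with 34 counts (22.7 CPM). The other 4 had 2 to 6 counts and the controls 3 to 17, so mouse 23 at 4.41 CPM was barely above the highest control at 3.88 CPM. Neutrophil markers summed to 909.98 CPM in mouse 41 and to 12.8 CPM in mouse 16, the latter inside the range of the other libraries. With no filter, edgeR called Lcn2 in the hippocampus (log2 fold change 1.98, adjusted p = 4.8e-07). However, the p-values of that fit were far smaller for several genes of the set, though not for Cd109, and DESeq2 on the same genes gave 2.14 with an adjusted p of 0.27.

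Cp, ceruloplasmin, the copper-carrying ferroxidase that lets astrocytes release iron, rose in the hippocampus. Controls there measured 11, 8.83, 9.12 and 7.75 CPM and GA-Camk2a libraries 28.7, 30.1, 17.0, 11.5, 24.5 and 21.3 CPM in mice 16, 23, 30, 34, 35 and 41. The lowest GA-Camk2a library was only just above the highest control. The log2 fold change was 1.23 ± 0.24 (SE, adjusted p = 0.0034 by edgeR). In cortex the values overlapped, 5.54 to 9.54 CPM in controls and 6.99 to 17.5 CPM in GA-Camk2a mice, with a log2 fold change of 0.63 ± 0.25 (SE, adjusted p = 0.11 by edgeR). The highest cortex value was that of mouse 34, whose choroid plexus markers summed to 8192 CPM against 1589 to 2726 CPM in the other 10 cortex libraries. With the choroid plexus marker level as a covariate, an alternative chosen after seeing the data, the Cp change was 0.42 in cortex and 1.22 in hippocampus (edgeR, adjusted p = 0.31 and 0.0012).

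Of the receptors, Osmr, which pairs with gp130 to bind oncostatin M, had few counts and large fold changes. Control cortex gave 0.954, 1.82, 2.93, 2.03 and 3.88 CPM (1 to 14 counts) and GA-Camk2a cortex 5.83, 8.51 and 20.7 CPM as lowest, median and highest. In hippocampus the controls gave 4.87, 2.21, 2.85 and 4.33 CPM and the GA-Camk2a libraries ran from 8.87 through 11.7 to 21.3 CPM. Neither tissue showed overlap. Osmr rose by 1.89 ± 0.37 on the log2 scale in the cortex (SE, adjusted p = 0.0016 by edgeR) and by 1.93 ± 0.31 in the hippocampus (adjusted p = 8.7e-04). In the cortex none of the 5 controls reached the filter's level of 5.06 CPM, so Osmr was tested there only because of the group in which it was high. It did not pass the filter, and so was not tested, when libraries were thinned to equal depth or batch 2 was taken alone.

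Cd44, the receptor for hyaluronan and osteopontin on astrocyte processes, rose in both tissues, by more in the hippocampus than in the cortex in these estimates. In hippocampus the controls measured 7.14, 2.72, 5.70 and 3.88 CPM and every GA-Camk2a library was higher, from 11.7 through 19.6 to 29.4 CPM. Mouse 41 had the highest value, and the log2 fold change of 2.07 ± 0.29 (SE, adjusted p = 3.1e-04 by edgeR) became 1.91 without that mouse (adjusted p = 6.3e-04). In cortex the control of mouse 20 had 0 counts, which allows up to 2.72 CPM at 3 counts, the other controls had 4.03 to 8.03 CPM, and GA-Camk2a libraries ran from 5.85 through 12 to 14.9 CPM. The groups overlapped through mouse 34, and the log2 fold change was 1.11 ± 0.33 (SE, adjusted p = 0.028 by edgeR). This cortex call was lost with no batch term, with limma-voom, in either batch alone and without GA-Camk2a mouse 16, 23 or 30 or control mouse 31 or 37, with values of 0.93 to 1.49 over all libraries left out.

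Cd109, a membrane-anchored protein that binds TGF-beta and its receptors, gave no call. Its cortex counts were 0 to 10 per library. In the hippocampus GA-Camk2a libraries ran from 0.557 to 9.34 CPM and spanned the controls at 1.36 to 5.85 CPM, with a log2 fold change of 0.36 ± 0.47 (SE, adjusted p = 0.70 by edgeR). The highest value was that of mouse 41, and without it the estimate was -0.03. The spread between GA-Camk2a libraries was wider than the difference of the groups.

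Stat3, the transcription factor downstream of gp130, had the smallest of the changes called. Its hippocampus controls were the tightest of the set, 25.7, 25.6, 25.1 and 24.4 CPM, and the GA-Camk2a libraries measured 48.2, 55.8, 34, 35.9, 47.4 and 42.7 CPM in mice 16, 23, 30, 34, 35 and 41. All 6 lay above the controls, a log2 fold change of 0.74 ± 0.13 (SE, adjusted p = 0.0017 by edgeR). In the cortex the ranges were 18.7 to 34.3 CPM and 24.5 to 43.5 CPM, with overlap and a log2 fold change of 0.49 ± 0.14 (SE, adjusted p = 0.027 by edgeR). That cortex call was lost in 8 of 11 changes of method, among them no filter, DESeq2 (adjusted p = 0.077), no batch term and thinned counts, and without GA-Camk2a mouse 16 or 34 or control mouse 31, 37 or 38.

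S100a6, or calcyclin, a small calcium-binding protein, was at 42.0, 50.0, 43.2, 40.0 and 40.5 CPM in control cortex and ran from 76.4 through 98.6 to 128 CPM in GA-Camk2a cortex. With such narrow groups the log2 fold change of 1.28 ± 0.13 (SE, adjusted p = 6.5e-07 by edgeR) had the 41st smallest p-value in the cortex. In hippocampus the controls measured 36.0, 29.9, 30.8 and 30.3 CPM and the GA-Camk2a libraries 132, 283, 98.0, 90.0, 98.7 and 142 CPM in mice 16, 23, 30, 34, 35 and 41. Mouse 23 was far above the others, whereas the remaining 5 alone were already about 3 times the controls or more. The log2 fold change was 2.04 ± 0.25 (SE, adjusted p = 9.9e-05 by edgeR), and 1.78 without mouse 23.

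**Figure D2:**
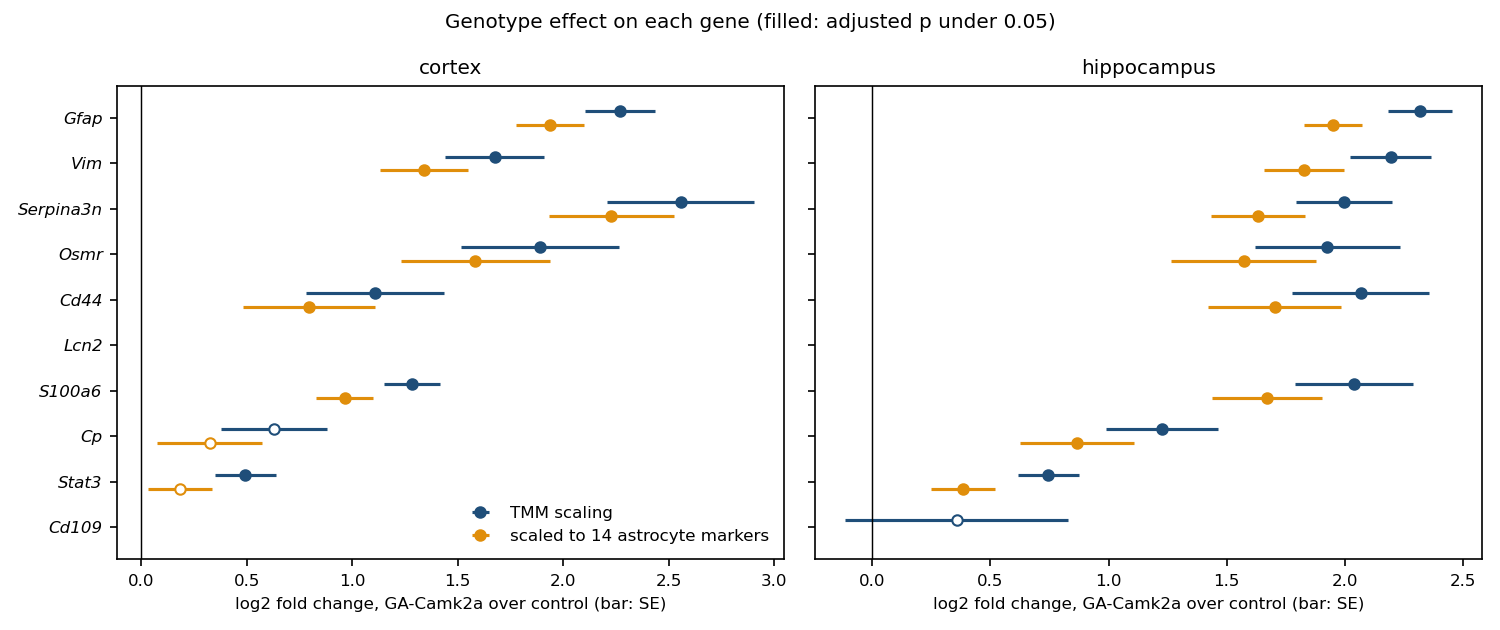
Log2 fold change of GA-Camk2a over control with its standard error for each gene, in cortex (n = 5 and 6) and hippocampus (n = 4 and 6), with library scaling by TMM in blue and by 14 astrocyte markers in orange; filled points have an adjusted p under 0.05. Astrocyte scaling moves all values left, and Stat3 in cortex, from 0.49 to 0.18, is the call that is lost; Lcn2 and cortex Cd109 did not pass the filter, and values within 0.1 of 0 are not drawn.

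The level of general astrocyte markers was measured beside the set. The 14 markers, which include the glutamate transporters Slc1a2 and Slc1a3 and the water channel Aqp4 and none of the 10 genes, summed to 2570 to 3432 CPM in control cortex and 3174 to 4092 CPM in GA-Camk2a cortex. In hippocampus the sums were 3021 to 3415 CPM and 3577 to 4623 CPM. The mean log2 sum was higher by 0.33 in cortex and 0.36 in hippocampus (exact two-sided permutation test, p = 0.00866 and p = 0.00952), with 5 of 6 and 6 of 6 GA-Camk2a libraries above all controls. Scaling each library to these markers moved the median of all genes by -0.31 in cortex and -0.36 in hippocampus, so that 295 of 13058 genes (2.26%) were called higher and 4508 lower in cortex, and 311 of 14884 (2.09%) higher and 5796 lower in hippocampus. On that scale Gfap was still higher by 1.94 and 1.95, Vim by 1.34 and 1.83, Serpina3n by 2.23 and 1.63 and S100a6 by 0.96 and 1.67 in cortex and hippocampus, all called. All 8 hippocampus calls remained, with Stat3 at 0.38 (edgeR, adjusted p = 0.033), and 6 of the 7 cortex calls remained, Cd44 at 0.80 (adjusted p = 0.048).

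Markers of other cells were compared between genotypes as well. The 10 microglia markers summed to 408 to 449 CPM in control cortex and 1028 to 1624 CPM in GA-Camk2a cortex, and to 355 to 412 CPM and 690.2 to 1085 CPM in hippocampus. Of these markers 8 were called higher in each tissue by edgeR, against 6.35% and 4.97% of all genes. Their log2 fold changes had medians of 0.90 and 1.00 and lowest values of -0.14 and -0.16. Fibroblast and meningeal markers, 7 genes that include Col1a1 and Dcn, summed to 65.4 to 85.9 CPM and 80.9 to 136 CPM in cortex, and to 85.9 to 135 CPM and 175 to 623 CPM in hippocampus, where mouse 41 was highest. The 9 endothelium and pericyte markers summed to 234 to 318 CPM and 263 to 387 CPM in cortex and to 243 to 283 CPM and 272 to 390.1 CPM in hippocampus, a difference in mean log2 sum of 0.34 in hippocampus and 0.30 in cortex (exact two-sided permutation test, p = 0.0286 and p = 0.0519). The 8 oligodendrocyte markers were higher by 0.20 in cortex and 0.12 in hippocampus (same test, exact p = 0.0260 and p = 0.581), and the 5 ependymal markers by 0.32 and 0.58 (exact p = 0.0649 and p = 0.0762). The 6 excitatory neuron markers were lower, from 1859 to 2341 CPM down to 1190.1 to 1633 CPM in cortex and from 1992 to 2511 CPM down to 1038 to 1421 CPM in hippocampus. Inhibitory neuron markers were higher in cortex by 0.24 (exact permutation p = 0.00433, 6 of 6 above all controls) and by 0.067 in hippocampus (exact p = 0.638). Of these 6 genes 1 was called higher in cortex and 2 in hippocampus by edgeR, with median log2 fold changes of 0.18 and 0.31. Few genes of the T cell, proliferation and neutrophil lists passed the filter. Of 5 T cell markers, 0 passed in hippocampus and 1 in cortex. Of 5 proliferation markers 0 passed in either tissue, and of 7 neutrophil markers 1 passed in hippocampus and 0 in cortex. T cell markers were higher in hippocampus by 0.75 (exact p = 0.0190) and differed by -0.38 in cortex (exact p = 0.255). Proliferation markers differed by -0.91 in cortex (exact p = 0.0390) and 0.53 in hippocampus (exact p = 0.410). Neutrophil markers were higher by 1.33 in hippocampus with mouse 41 included (exact p = 0.0476) and by 0.20 in cortex (exact p = 0.502). These p-values are not adjusted over the marker lists and tissues. No marker of these lists was at 0 in a whole group. Their part in the changes of Vim, Cd44, S100a6 and Serpina3n was not tested. Without hippocampus mouse 41 the same 8 genes were called, with log2 fold changes from 0.77 for Stat3 to 2.29 for Gfap.

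The comparison of tissues asked whether the genes rise to the same degree in both. The difference of the 2 genotype effects was tested over all 21 libraries, where 61 of 14751 genes (0.414%) were called. Of the 9 genes of the set tested, 0 were called by edgeR and 0 by DESeq2 or limma-voom, and S100a6 alone had an unadjusted p under 0.05 in each of these tools. S100a6 rose more in hippocampus by 0.75 on the log2 scale (95% interval 0.16 to 1.34, edgeR, adjusted p = 0.37), and it was called only when no filter was used. Cd44 was next, with a difference of 0.93 (interval -0.034 to 1.90, adjusted p = 0.56), which became 0.37 with the mouse as a block (adjusted p = 0.81). Serpina3n went the other way, by -0.57 (interval -1.52 to 0.39, adjusted p = 0.76), and Vim and Cp gave 0.51 (-0.14 to 1.16) and 0.57 (-0.14 to 1.29). Stat3 gave 0.23 (-0.19 to 0.65) and Cd109 -0.42 (-1.87 to 1.03), which became -1.13 with the block. For Gfap, at 0.058, and for Osmr, at 0.014, the sign changed between alternatives. Lcn2 did not pass the filter of this fit. These intervals leave room for differences of 2-fold and more for several genes.

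In control mice, levels in the tissues were set side by side in the same fit. For Serpina3n all 4 control hippocampi, at 40.5 to 50.0 CPM, lay above all 5 control cortices, at 16.3 to 23.8 CPM, and for S100a6 the hippocampi, at 29.9 to 36.0 CPM, lay below the cortices, at 40.0 to 50.0 CPM. Vim at 0.14, Osmr at 0.36, Cp at 0.35, Stat3 at -0.0053 and Cd109 at 1.065 on the log2 scale had adjusted p-values of 0.21 or more, and Lcn2 did not pass the filter. Of the 9 genes tested 0 were called by edgeR without pairing, DESeq2 or limma-voom, against 2702 of 14751 genes (18.3%) in edgeR, and Gfap and Serpina3n had an unadjusted p under 0.05 in edgeR. With the mouse as a block, since the tissues come from the same animals, 3 were called, against 14.1% of all genes: Gfap higher in hippocampus by 0.56 (edgeR, adjusted p = 0.030), Serpina3n higher by 1.02 (adjusted p = 0.011) and S100a6 lower by 0.51 (adjusted p = 0.040).

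In GA-Camk2a mice 4 of the 9 genes were called higher in hippocampus than in cortex, against 2692 of 14751 genes (18.2%) called higher and 5140 (34.8%) called in either direction. These were Gfap by 0.54 ± 0.15, Vim by 0.65 ± 0.20, Cd44 by 0.73 ± 0.28 and Cp by 0.92 ± 0.22 on the log2 scale (SE, adjusted p = 0.0075, 0.013, 0.043 and 0.0022 by edgeR). Markers of other cells differed between the same groups: choroid plexus markers had a mean sum of 27453 CPM in hippocampus against 3096 CPM in cortex, ependymal markers 81.3 against 29.3 CPM and fibroblast and meningeal markers 265 against 109 CPM. Their part in these tissue differences was not tested. With the mouse as a block Serpina3n was also called, at 0.56 (adjusted p = 0.0094), where 34.7% of all genes were called. Osmr at 0.38, S100a6 at 0.26, Stat3 at 0.22 and Cd109 at 0.64 were not called, and Lcn2 did not pass the filter. Only Cp was still called without mouse 35, whose cortex was the lowest of the 6 for Gfap and Vim. The Cd44 call was also lost with no batch term, with DESeq2, on the astrocyte scale and in 7 of the 11 fits that left a mouse out, and all 11 gave 0.55 to 0.89. By group mean CPM, the order for Gfap, Vim, Serpina3n, Osmr, Cd44 and Cp was GA-Camk2a hippocampus, GA-Camk2a cortex, control hippocampus and control cortex. Of these steps the first was not called for Serpina3n and Osmr without pairing, the last was not called for any of the 6 without pairing, and the middle step, between tissues and genotypes, was not tested. For Cd44 the control means of 4.66 and 4.86 CPM were close, and the fitted difference was -0.20 with hippocampus lower. For S100a6 and Stat3 the controls were exchanged, with means of 43.1 and 31.8 CPM for S100a6 and of 25.3 and 25.2 CPM for Stat3 in cortex and hippocampus.

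**Figure D3:**
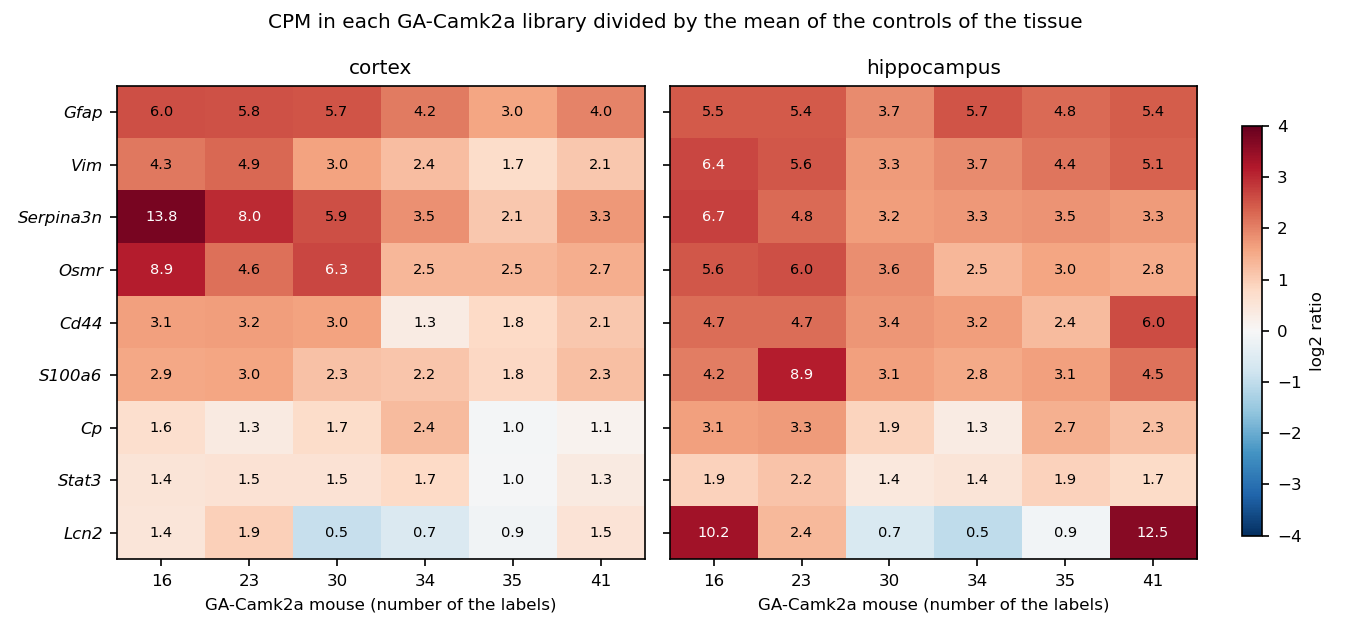
Each cell gives the CPM of a gene in 1 GA-Camk2a library divided by the mean of the controls of that tissue, with mice in columns and the log2 of the ratio in colour. Mice 16 and 23 carry the highest ratios in most rows and mouse 35 the lowest cortex ratios, while Lcn2 is high only in the hippocampus of mice 16 and 41.

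The GA-Camk2a mice differed among themselves in a way that several genes shared. In the cortex mouse 16 or 23 was the highest for 6 of the 8 genes tested, and mouse 35 was the lowest for 7, all but Cd44. The median ratio to the control mean over the 8 genes was 3.70 and 3.91 in the cortices of mice 16 and 23 and 1.76 in that of mouse 35. In the hippocampus mice 16 and 23 again led 6 of the 8 genes, with median ratios of 5.11 and 5.12, but mouse 35 at 3.04 was no longer apart from mouse 30 at 3.22 and mouse 34 at 3.01. Of all 10 genes, 2 had the same highest mouse in both tissues, Serpina3n with mouse 16 and S100a6 with mouse 23. The libraries of mice 16 and 23 were in different batches in each tissue. Microglia marker sums had the same leaders in the cortex, 1624 CPM in mouse 16 and 1522 CPM in mouse 23 against 1028 CPM in mouse 35. In the hippocampus they did not, with 1085 CPM in mouse 41 and 1080 CPM in mouse 34 ahead of 1040.4 and 1039 CPM in mice 16 and 23, and mouse 30 lowest at 690.2 CPM.

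Likeness over libraries was measured for Gfap and Serpina3n as Pearson's r of log2 CPM over the 21 libraries after subtraction of the 4 group means, among 11456 other genes. Libraries of a mouse and of a batch are not independent, and the values are a description. Closest to Gfap were Tgfbr1 (0.86), Itgb2 (0.83), Slc16a1 (0.83), Mto1 (0.83) and Tmem63a (0.81). Closest to Serpina3n were Ctss (0.86), H2-D1 (0.85), Morc2a (0.81), Vim (0.80) and Spp1 (0.79). Gfap and Serpina3n were at 0.66 with each other, and Gfap was at 0.51 with Vim, 0.68 with Cd44, 0.56 with Stat3, 0.19 with S100a6 and 0.13 with Cp. Within groups Gfap was thus closer to Cd44 and Serpina3n than to S100a6 and Cp.

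**Figure D4:**
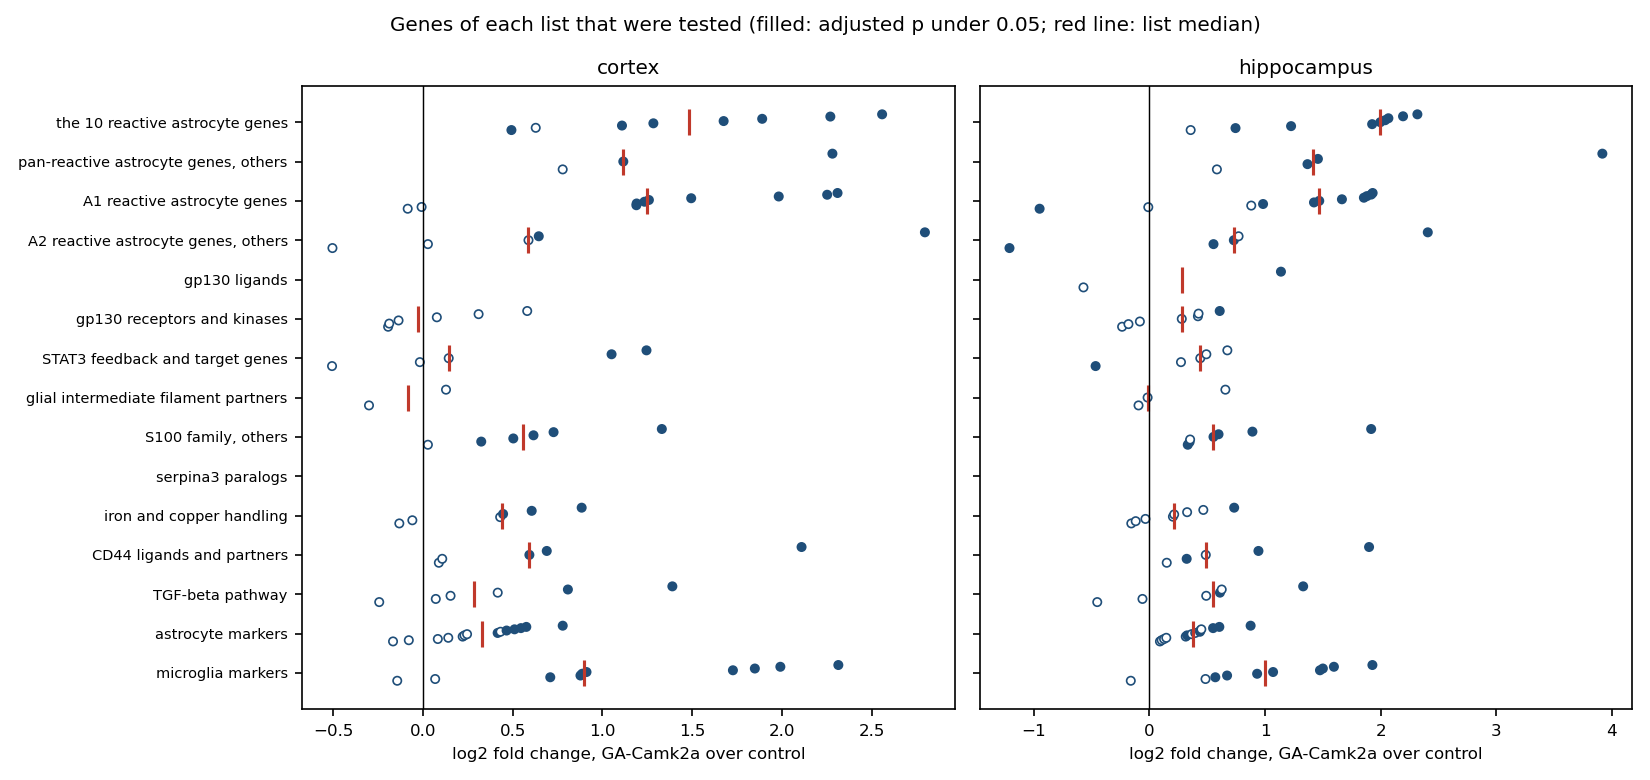
Each point is a tested gene of the list on the vertical axis, placed at its log2 fold change of GA-Camk2a over control; filled points have an adjusted p under 0.05 and the red line is the list's median. Genes of the reactive astrocyte lists lie mostly to the right, at medians of 1.48 in cortex (1.28 without Osmr) and 2.00 in hippocampus for the genes tested of the 10. The gp130 receptors and kinases have medians of -0.029 in cortex and 0.28 in hippocampus, against -0.0049 and 0.016 over all genes tested.

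Other genes that mark reactive astrocytes were counted in lists, where the shares of all genes called higher were 6.35% in cortex and 4.97% in hippocampus, with medians of -0.0049 and 0.016 over all genes. Of 6 further pan-reactive genes, 3 were tested in cortex and 2 rose, and 4 were tested in hippocampus and 3 rose. Timp1, an inhibitor of metalloproteinases, rose by 2.28 ± 0.35 in cortex (SE, adjusted p = 1.0e-04 by edgeR) and S1pr3, a sphingosine phosphate receptor, by 1.116 ± 0.25 (adjusted p = 0.0039). Timp1 had 1 to 5 counts in every control cortex, passed the filter only through the GA-Camk2a libraries and could be tested in 2 of the 11 fits that left a library out, so the filter fixed its direction, and without it 1 of 2 further genes rose in cortex. In hippocampus the chemokine Cxcl10 rose by 3.92 ± 0.58 (SE, adjusted p = 4.7e-04 by edgeR), though on 0 to 5 counts per control library and past the filter only through GA-Camk2a libraries, and S1pr3 by 1.46 ± 0.23 (adjusted p = 8.7e-04). Without Cxcl10, 2 of 3 further genes rose in hippocampus. The third gene called in hippocampus was Aspg, at 1.37.

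Lists of astrocyte genes once separated as A1, induced by inflammation, and A2, induced by ischemia, both held risers, against the same shares over all genes. Of 12 A1 genes 10 were tested in cortex and 8 rose, with a median of 1.25, and 11 were tested in hippocampus, where 8 rose and 1 fell, with a median of 1.47. Psmb8, a subunit of the immunoproteasome, rose by 2.31 in the cortex and 1.86 in the hippocampus, and Gbp2, an interferon-induced GTPase, by 2.25 and 1.67 (edgeR). In the hippocampus the largest rises of the list were those of Iigp1, another interferon-induced GTPase, at 1.93 ± 0.49 (SE, adjusted p = 0.018 by edgeR), and Ggta1, a galactosyltransferase, at 1.92 ± 0.41 (adjusted p = 0.0066). Both calls were lost in batch 1 alone and without control mouse 20, and that of Iigp1 also without control mouse 37. In the cortex Iigp1 did not pass the filter and Ggta1 rose by 1.19. Several of these, H2-D1 and Psmb8 among them, are also interferon genes of microglia, and their source was not tested. Amigo2, an adhesion protein, was the gene that fell, by 0.95 ± 0.18 in hippocampus (SE, adjusted p = 0.0025 by edgeR), against -0.08 in cortex, and this call was lost with thinned counts and in each batch alone. Of 11 further A2 genes 5 were tested in each tissue. Cd14, the lipopolysaccharide co-receptor of myeloid cells, rose by 2.80 and 2.41, Tm4sf1 by 0.65 and 0.73 and S100a10 in hippocampus by 0.55, while Ptgs2, a neuronal cyclooxygenase, fell in hippocampus by 1.21 ± 0.25 (SE, adjusted p = 0.0050 by edgeR). The calls of Tm4sf1 in both tissues and of Ptgs2 were lost in each batch alone.

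Genes upstream of STAT3 were counted as well, against 12.5% of all genes called in cortex and 10.9% in hippocampus in either direction. Most of the ligands were too low to test. Of 8 ligands of the gp130 family, 0 passed the filter in cortex and 2 in hippocampus. Osm, Lif, Il6, Il11 and Cntf had 0 to 8 counts per library in all groups. Ctf1, cardiotrophin, was called in hippocampus at 1.14 ± 0.29 (SE, adjusted p = 0.021 by edgeR), a call lost in 5 of the 10 fits that left a library out. Of 7 gp130 receptors and kinases 0 of 6 tested were called in cortex (edgeR) and 1 of 7 in hippocampus, Il6st, which codes for gp130 itself, at 0.61 ± 0.16 (SE, adjusted p = 0.025), a value of 0.25 on the astrocyte scale, and a call lost in 3 of the 10 fits that left a library out. The estimate for Osmr, 1.93 in hippocampus, was higher than that of either. Of 8 feedback and target genes of STAT3, 5 were tested in each tissue. In cortex 2 rose and 3 were not called, and in hippocampus 0 rose, 1 fell and 4 were not called. Cebpd rose by 1.24 ± 0.19 in cortex (SE, adjusted p = 7.9e-05 by edgeR) and Tnfrsf12a by 1.05. Junb fell by 0.47 in hippocampus (adjusted p = 0.045 by edgeR), a call lost in 6 of 11 changes of method and in 7 of the 10 fits that left a library out. Socs3, the feedback inhibitor, did not pass the filter and had 1 to 17 counts per library.

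The families around single genes were measured as well. Of 7 further S100 genes, 5 of 6 tested rose in cortex and 6 of 7 in hippocampus, with medians of 0.56 and 0.55, against 6.35% and 4.97% of all genes called higher and medians of -0.0049 and 0.016. S100a11 rose by 1.33 in the cortex and 0.89 in the hippocampus, and the latter call was lost with thinned counts, in batch 1 alone and in 5 of the 10 fits that left a library out. S100a13 rose by 0.73 ± 0.10 in cortex (SE, adjusted p = 3.7e-05 by edgeR), a call lost in batch 2 alone. S100a4, a gene of microglia and fibroblasts, rose by 1.92 in hippocampus, where S100a6 was at 2.04. S100b, the classical astrocyte S100 gene, rose by 0.33 ± 0.09 and 0.35 ± 0.09 (SE, adjusted p = 0.017 and 0.020 by edgeR). Of 9 genes of iron and copper handling beside Cp and Lcn2, 3 of 6 tested rose in cortex and 1 of 8 in hippocampus. Ftl1, the ferritin light chain, rose by 0.88 and 0.73, Fth1 by 0.61 in cortex and the transferrin receptor Tfrc by 0.45 in cortex. Neither the iron exporter Slc40a1, at 0.43 and 0.21, nor the ferroxidase Heph, tested in hippocampus at -0.03, was called (edgeR, adjusted p from 0.20 to 0.98).

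Of 7 ligands and partners of CD44, 5 were tested and 3 rose in each tissue, against 6.35% and 4.97% of all genes called higher. Spp1, which codes for the CD44 ligand osteopontin, rose by 2.11 ± 0.25 in cortex and 1.90 ± 0.35 in hippocampus (SE, adjusted p = 5.0e-06 and 0.0023 by edgeR), and Msn, a cytoskeletal linker of CD44, by 0.69 and 0.94. The related linkers Ezr and Rdx were each called in 1 tissue, Ezr in cortex at 0.59 and Rdx in hippocampus at 0.32. Hapln1, a hyaluronan link protein, was not called in either tissue, and the hyaluronan synthases Has2 and Has3 did not pass the filter. Of 7 genes of the TGF-beta pathway, 6 were tested and 2 rose in each tissue, with medians of 0.29 and 0.55. These were Tgfb1 at 1.39 and the receptor Tgfbr2 at 0.81 in cortex, and Tgfbr2 at 1.33 and Tgfbr1 at 0.61 in hippocampus. Tgfb1 passed the filter in 6 of the 11 fits that left a library out. Whether the filter fixed its direction was not tested. The cortex call of Tgfbr2 was lost with DESeq2, and that of Tgfbr1 with no filter, with thinned counts and without control mouse 20. On the astrocyte scale the calls of Msn, Tgfbr2, Fth1 and Tm4sf1 in cortex and of Tgfbr1, Il6st, S100a11 and Tm4sf1 in hippocampus were lost. Without hippocampus mouse 41, S100a11, at 0.71, was the call lost among the genes of these lists that the naming rule picked. Of the 16 such genes in cortex, 4 of 16 tested lost their call in batch 1 alone and 9 of 15 in batch 2 alone, Cebpd and Tgfb1 in batch 2 among them. Of the 18 in hippocampus, 17 of 18 lost it in batch 1 alone and 6 of 16 in batch 2 alone, and 0 of these estimates changed sign.

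**Figure D5:**
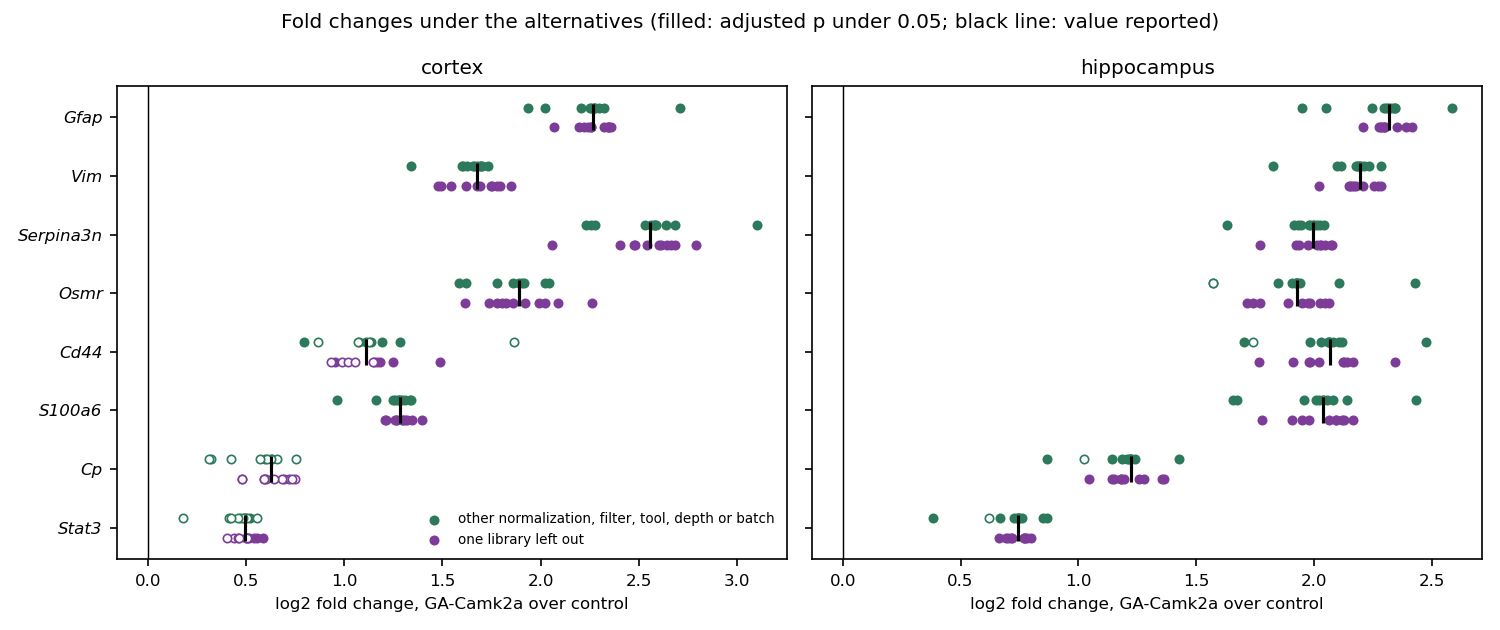
Log2 fold changes of the 8 genes tested in both tissues under other normalizations, filters, tools, depths and batches (green) and with 1 library left out (purple); filled points have an adjusted p under 0.05 and the black line is the reported value. Gfap, Vim, Serpina3n and S100a6 are filled throughout, while Cd44 and Stat3 in cortex lose their calls in several fits and Cp in cortex has none.

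Within batches the 8 genes were higher wherever they were tested. In batch 1 alone and batch 2 alone, Gfap was higher by 2.02 and 2.71 in the cortex and by 2.05 and 2.58 in the hippocampus, and Serpina3n by 2.28 and 3.10 and by 2.04 and 1.93. Gfap, Vim, Serpina3n and S100a6 were called in each batch of each tissue, with 2 to 4 libraries a group. In the cortex 5 genes were called in batch 1 and 4 in batch 2, where 3.26% and 1.118% of all genes tested were called higher. In the hippocampus 4 were called in batch 1 and 8 in batch 2, where 0.301% and 2.42% of all genes were called higher. Osmr, Cd44, Cp and Stat3 were higher in GA-Camk2a hippocampus in batch 1 too, at 1.57, 1.74, 1.02 and 0.62 on the log2 scale, and were not called there (edgeR, adjusted p = 0.13, 0.057, 0.33 and 0.25).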

How the data were processed

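Prime-seq reads the 3′ ends of transcripts. Per the study's methods and the submitters' processing notes, the authors assigned reads to libraries and genes with zUMIs, which runs STAR, on GRCm39 with a GFP sequence added, and the notes name FastQC 0.11.8, cutadapt 1.12 and DESeq2 1.44. The deposited table holds raw counts, whole numbers, of each gene in each library. Whether these are molecules or reads, the annotation release and the use of strand are not given in the sources used here, so counting error may understate technical error, and overlapping, antisense or paralogous genes are uncertain. The table has 64361 genes and a GFP row, which was kept out of totals. Symbols came from a GENCODE table of GRCm38, which matched 43308 genes. Coordinates are given for the promoter windows alone, on GRCm38.p6, because the builds differ, and 0 count columns were unused.

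Counts were fitted with edgeR 4.0.16 in R 4.3.3 (TMM, filterByExpr with a minimum count of 10, quasi-likelihood F-test, batch of the labels as covariate), 1 fit per tissue and 1 over all 21 libraries for differences between tissues. For these libraries the study used DESeq2, with no covariates named. Adjusted p-values are Benjamini-Hochberg over all genes tested, with a threshold of 0.05. The standard error is the log2 fold change divided by the square root of F, and intervals are normal ones of 95%. Plain CPM per library are not TMM-scaled. Log2 CPM had a prior count of 2. Replicates are separate mice, and 0 of 46 pairs within groups were identical, with a chi-square per degree of freedom of at least 2.10. The same mouse number in both tissues is the same animal. Deviations of its libraries from the group means correlated at -0.15 to 0.23 over 10 mice, over 0.1 in 5, and all 5 of those mice had both libraries in 1 batch. Fits were tested on simulated counts.

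Alternatives were other normalizations (RLE, upper quartile), no filter, no batch term, DESeq2 1.42.0, limma-voom (limma 3.58.1), thinned counts, scaling to 14 astrocyte markers, each batch alone, each library or mouse left out, the mouse as a block and, chosen after seeing the data, choroid plexus markers as a covariate. The members, lists and tests were chosen with earlier results of these data known. All 10 genes are named in every comparison, and of each pathway list the 2 largest rises and falls called per tissue. Other list genes (Nes, Aspg, H2-D1, S100a10, S100b, Tfrc, Slc40a1, Heph, Ezr, Rdx, Hapln1 and the untested ones) were named after their values were seen.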

Additional observations from a re-analysis of the deposited data

Results flagged for a closer look

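Each of the 10 genes was checked for a library far from the others in each of the 4 groups, 40 checks in all, of which chance flags about 1 in 20. Both results found concern S100a6 in the hippocampus. In GA-Camk2a mice, mouse 23 measured 283 CPM from 385 counts, while the other 5 libraries lay between 90.0 and 142 CPM. In control mice, mouse 11 measured 36.0 CPM from 111 counts, while the other 3 lay between 29.9 and 30.8 CPM. No second library of these mice and this tissue was measured. In the cortex mouse 23 was also the highest for S100a6, at 128 CPM against 126 CPM in mouse 16.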

How the results depend on the processing

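The number of the 10 genes called higher in the cortex was 7 and fell to 4 with thinned counts and to 4 in batch 2 alone, with 5 to 7 when a library was left out. In the hippocampus it was 8, and 4 in batch 1 alone, with 8 to 8 when a library was left out. Fewer libraries or counts entered these fits. For the difference between tissues 0 genes were called, 1 with no filter, and 0 to 0 when a mouse was left out. For control tissues 0 were called, 3 with no filter, 3 with the mouse as a block and 0 to 2 when a mouse was left out, the 2 without GA-Camk2a mouse 16. For GA-Camk2a tissues 4 were called, 5 with the mouse as a block, and 1 to 4 when a mouse was left out, the 1 without mouse 35. With the mouse as a block, pairing the tissues of an animal, 0 genes were called for the difference between tissues. Within a tissue each mouse gave 1 library, so no block applied there.

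Signs that changed belonged to estimates that were not called, and the cause was not tested. Cd109 in hippocampus was -0.14 in batch 1 alone and -0.034 to 0.71 when a library was left out. For the difference between tissues Gfap was -0.031 with the block and -0.056 to 0.23 with a mouse left out, and Osmr was -0.015 with no filter, -0.014 with no batch term, -0.079 with DESeq2, -0.19 with thinned counts, -0.029 on the astrocyte scale, -0.48 with the block and -0.27 to 0.25 with a mouse left out. Between control tissues, Vim was -0.010 to 0.27 and Cd44 -0.43 to 0.16 with a mouse left out, and Cd44 was 0.28 with the block. Stat3 there was 6.4e-05 with upper quartile normalization, 0.030 with no filter, 0.047 with limma-voom, 0.13 with thinned counts and -0.087 to 0.091 with a mouse left out. Of 172 alternative values in cortex, 150 kept direction and side of the threshold, 22 lost the call and 0 reversed, and of 186 in hippocampus 179 kept, 4 lost and 3 reversed. Osmr, Cd44, Cd109 and Lcn2 had few counts in many libraries.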
